A study of Bos taurus with 16 samples.

Results

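The genes described here are 9 interferon-stimulated antiviral genes, MX1, MX2, ISG15, OAS1X, OAS1Y, OAS2, RSAD2, IFI6 and IRF7, followed in cow blood before and after a probiotic supplement. They were taken by symbol from the authors' deposited table and joined by probe name to the scanner output of every array. They make up 9 of the 17102 genes with a symbol on the array, and 15 of its 43653 probes. Total RNA came from whole blood of lactating Holstein Friesian cows and was measured on 16 single-colour (Cy3) Agilent bovine arrays, 4 for each of 4 groups. The LPS group was blood drawn at day 60 from cows given the probiotic, to which lipopolysaccharide, a component of bacterial cell walls, was added in vitro at 100 ng/ml. The probiotic group was blood of the supplemented cows at day 60, without LPS. The untreated group was blood at day 60 from cows that received only water. The day 0 group was blood drawn before any supplement. The supplement was a commercial oral pack of yeast culture with Enterococcus, Lactobacillus and Bacillus fermentation products. Of 10 cows enrolled, 5 were in each arm, and all blood was kept for 30 minutes at 37 °C in 5% CO2. The labels place the day 0 samples in the probiotic arm, and whether the pool also held cows of the water arm is not given in the sources used here.

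Each group's RNA was combined into 1 pool, which was hybridised to 4 arrays. A p-value here speaks to the spread among repeat arrays and says nothing of the spread between cows. Every group had its own slide and cannot be told apart from it, and only the LPS and probiotic arrays shared a scan day. In pooled whole blood, fewer cells of a type and less RNA per cell cannot be told apart either.

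Type I interferons bind a receptor made of IFNAR1 and IFNAR2, which through the kinases JAK1 and TYK2 activates transcription factors that include STAT2 and IRF9. These switch on many genes, among them the antiviral effectors described here, and IRF7, which amplifies the production of interferon itself. In cattle these genes are also followed in blood leukocytes because interferon tau from the early embryo induces them. MX1 and MX2 are dynamin-like GTPases that block virus replication. The OAS enzymes sense double-stranded RNA and make the 2-5A signal that activates RNase L, ISG15 is a ubiquitin-like modifier, RSAD2 (viperin) makes a chain-terminating nucleotide and IFI6 is a small membrane protein that limits flavivirus replication in human cells. In the ARS-UCD2.0 annotation of the cow genome MX2 and MX1 are neighbours, and OAS2, OAS1Y and OAS1X lie in a row. The array was designed on another assembly, so no positions are given.

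The 2 tested ISG15 probes overlap in the same stretch of the transcript, and their sequences are shown because they behaved differently in LPS blood. They are the array design's 60-base probes as deposited, 5′ to 3′, and the capitals mark the 28 bases they share.
A_73_119493: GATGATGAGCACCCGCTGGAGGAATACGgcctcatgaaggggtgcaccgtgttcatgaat
A_73_P122741: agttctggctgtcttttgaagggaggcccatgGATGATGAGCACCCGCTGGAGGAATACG
The IRF7 probes A_73_P501988 and A_73_P050461 share 54 of 60 bases, so they are nearly 1 measurement printed at separate places. The MX1 probes share at most 6 bases with one another.

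The arrays differed in brightness and in where signal was lost. Spots well above background, by the scanner software's own call, were 22.5 to 42.1% of spots on the LPS arrays, 26.4 to 37.1% on the probiotic arrays, at most 17.9% on the untreated arrays and 8.26 to 23.0% on the day 0 arrays. The brightest spike-in control exceeded the dark corner spots by a factor of only 1.77 to 1.93 on the untreated arrays, against 5.05 to 335 on the day 0 arrays. Across the tested probes, which are not independent replicates, probiotic arrays correlated with one another at a median Spearman rho of 0.888, but with untreated arrays at -0.01. On several arrays the middle rows of the slide were dim: in the first 76 rows the median probiotic minus untreated difference was 2.17 on the log2 scale, and in rows 305 to 380 it was -3.06. For each member probe the median difference of the tested probes within 10 rows and 10 columns is therefore given beside its own, as a description. Marker lists of blood cells differed in unscaled signal between the groups too. Of 25 T cell marker probes 14 to 16 were well above background on probiotic arrays, with a summed signal of 53415 to 71279 scanner units, and 1 to 4 on untreated arrays, with 1132 to 3819 units. At day 0 the T cell count was 7 to 14 probes, although day 0 replicate 4 had the lowest share of bright spots of all arrays. Of 21 neutrophil marker probes the counts were 8 to 12 on probiotic arrays (65611 to 96492 units) and 3 to 5 on untreated arrays (1733 to 6024 units). Erythroid marker probes differed less in number, with 5 to 7 of 16 well above background on probiotic arrays and 4 to 7 on untreated arrays. Their summed signal was 177730 to 254410 units on probiotic arrays and 2730 to 35997 units on untreated arrays. These sums are not scaled for brightness. The array level defined below was 7109 to 11894 units on probiotic and 1074 to 1378 units on untreated arrays. After that scaling, 6 of 9 tested T cell genes were called higher in probiotic than untreated blood and 0 lower. Of 8 neutrophil genes 6 were called higher and 2 lower, and of 3 erythroid genes 1 higher and 1 lower. The part of brightness, position and cell make-up in the results was not tested.

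Signals are given as background-subtracted scanner units, in the order of the replicate arrays 1 to 4. For comparison between arrays each was divided by the array level, the 75th percentile of the 672 probes that were well above background on all 16 arrays. Differences are of log2 scaled signal, with SE, from 1 limma fit of all 16 arrays, and passing (being called) took both an adjusted p (Benjamini-Hochberg) under 0.05 and at least a 2-fold difference. Scaled signals under 0.28% of the array level were set to that floor. The dimmest spots well above background lay at 0.279 to 1.74% of the array level on LPS arrays, 0.292 to 0.642% on probiotic arrays, 5.08 to 10.03% on untreated arrays and 0.743 to 1.93% on day 0 arrays. A dim untreated spot can thus hide a level that would be measured elsewhere. For a probe dark on every array of a group (none well above background), the fold is given as a bound, the mean of the bright group against the lowest signal well above background on each dim array, or the probe's own signal where that was higher. No bound is given where a spot of the bright group was itself not well above background, as for the MX1 probe A_73_P110771, TRIM25, IFI35 and UBA7.

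Of the 15 probes, 9 were well above background on all 4 arrays of at least 1 group and were tested. They cover MX1, MX2, ISG15, OAS1Y, OAS2 and IRF7. The ISG15 probe A_73_119493 and OAS2 entered only through the probiotic arrays. MX2 and the MX1 probe A_73_P110771 entered only through the LPS arrays. For these 4 probes that choice favours the group through which they entered. On single arrays 7 to 9 of the 15 probes were well above background in LPS blood, 7 to 9 in probiotic blood, 2 to 4 in untreated blood and 4 to 6 at day 0. Only the IRF7 probe A_73_P501988 was well above background on all 16 arrays.

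**Figure D1:**
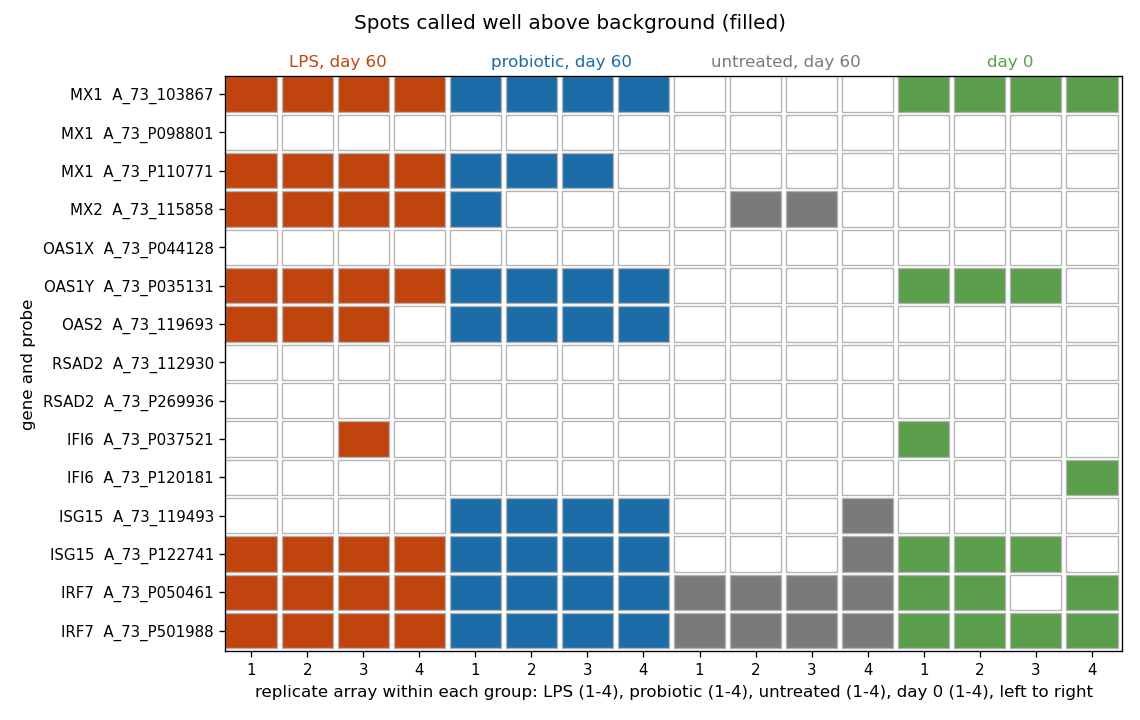
Detection of each member probe (rows) on each array (columns, by group and replicate). A filled tile is a spot called well above background by the scanner software. LPS and probiotic arrays show 7 to 9 filled tiles each, untreated arrays 2 to 4, and 4 probes are never filled.

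RSAD2 and OAS1X stayed dark throughout. Both RSAD2 probes and the OAS1X probe were not well above background on any of the 16 arrays, LPS-stimulated blood included. RSAD2 reached at most 25.6 scanner units on any array and OAS1X at most 0.8 units. On the probiotic arrays 20.7 to 32.3% of the spots around the OAS1X probe were well above background. Around the RSAD2 probe A_73_112930 these were 2.3 to 14.9%. The other RSAD2 probe, A_73_P269936, was dark in a brighter area, where the share was 12.5% on probiotic replicate 4 and at least 44.8% on the other probiotic arrays. IFI6 was seen on isolated arrays. Its probe A_73_P037521 gave 45.3 units on LPS replicate 3 and 107.8 units on day 0 replicate 1, and its probe A_73_P120181 gave 43.4 units on day 0 replicate 4; all other IFI6 spots were not well above background. Around the IFI6 probes 3.9 to 6.5% and 0.2 to 2.1% of spots were well above background on the probiotic arrays. For MX1, the probe A_73_P098801 was dark on all arrays, unlike the other MX1 probes.

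MX1 was bright in every group but the untreated one. Its probe A_73_103867 read 4886, 4866, 4780 and 75.6 scanner units on the LPS arrays and 6751, 6475, 6485 and 5404 units on the probiotic arrays. On the untreated arrays it read 8.7, 4.2, -19.5 and 45.3 units, none of them well above background, and on the day 0 arrays 1401, 1339, 1277 and 149.7 units. The probiotic and day 0 spots were all bright and the untreated spots all dark, while LPS replicate 4 and day 0 replicate 4 lay far below the rest of their groups. As a share of the array level, MX1 was 63.1 ± 8.72% in probiotic blood (SD, n = 4) and 40.7 ± 14.3% at day 0.

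OAS1Y, a 2-5A synthetase, was likewise dark on every array only in untreated blood. Its spot on day 0 replicate 4 was also not well above background. It read 2748, 2857, 2633 and 144.6 units on the LPS arrays, 2376, 2296, 2259 and 1969 on the probiotic arrays, and 205.3, 214.0, 199.4 and 35.2 on the day 0 arrays. All 4 untreated spots were below 0 after background subtraction, from -30.2 to -13.1 units. Relative to the array level it was 22.4 ± 3.54% in probiotic blood and 6.67 ± 1.48% at day 0 (SD, n = 4), and these ranges did not overlap.

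ISG15 showed a single bright untreated array. Its probe A_73_P122741 read 2426, 4084, 1240 and 182.6 units in LPS blood, 3242, 2867, 2676 and 602.7 in probiotic blood, 10.1, 22.2, 33.4 and 1098 in untreated blood and 280.1, 279.0, 205.1 and 36.5 at day 0. In scanner units untreated replicate 4 lay within the range of LPS and probiotic blood, but as a share of the array level it was 86.3%, against at most 36.5% in LPS and 27.3% in probiotic blood. The other untreated arrays were dark. On that array 49.0% of the spots around the probe were well above background, against 6.4 to 14.1% on the other untreated arrays. The overlapping probe A_73_119493 read 809, 599.2, 657.8 and 408 units in probiotic blood, but -0.5, 3.2, -7.2 and 3.4 in LPS blood. In untreated blood it too was well above background only on replicate 4, with 547.4 units.

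MX2 and OAS2 stayed near background. MX2 read 74.9, 58.2, 58.4 and 41.6 units on the LPS arrays, 124.3, 0, 32.1 and -5.5 on the probiotic arrays, 85.6, 103.4, 171.2 and 44.3 on the untreated arrays and at most 5.2 at day 0. It was well above background on all LPS arrays, on 1 probiotic array, on 2 untreated arrays and on no day 0 array. OAS2, another 2-5A synthetase, read 76.2, 68.7, 63.7 and 0.5 units in LPS blood and 54.2, 52.5, 48.9 and 55.3 in probiotic blood. The untreated OAS2 spots ran from -7.1 to 95.9 units and the day 0 spots from -1.0 to 1.4 units, none well above background.

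IRF7, the transcription factor of the set, was measured in every group. Its brighter probe A_73_P501988 read 967.5, 1528, 1908 and 237.5 units on the LPS arrays, 1215, 525.9, 1160 and 359.8 on the probiotic arrays, 392.9, 496.5, 383.4 and 265.4 on the untreated arrays and 524.5, 232.5, 197.8 and 97.9 on the day 0 arrays. In scanner units the median was 843 on the probiotic arrays and 388 on the untreated arrays, and the ranges overlapped. As a share of the array level the probiotic arrays, at 4.83 to 10.8%, all lay below the untreated arrays at 20.9 to 36.6%, so the scaling turned the order. The probe A_73_P050461 read 334.3, 213.6, 171.7 and 148.7 units on the LPS arrays, 238.3, 289.6, 297.3 and 260.6 on the probiotic arrays, 151.2, 349.1, 341.1 and 589.3 on the untreated arrays and 41.7, 47.8, 30.6 and 49.4 on the day 0 arrays. As a share of the array level its day 0 spots ran from 1.19 to 6.36% and overlapped those of LPS and probiotic blood.

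**Figure D2:**
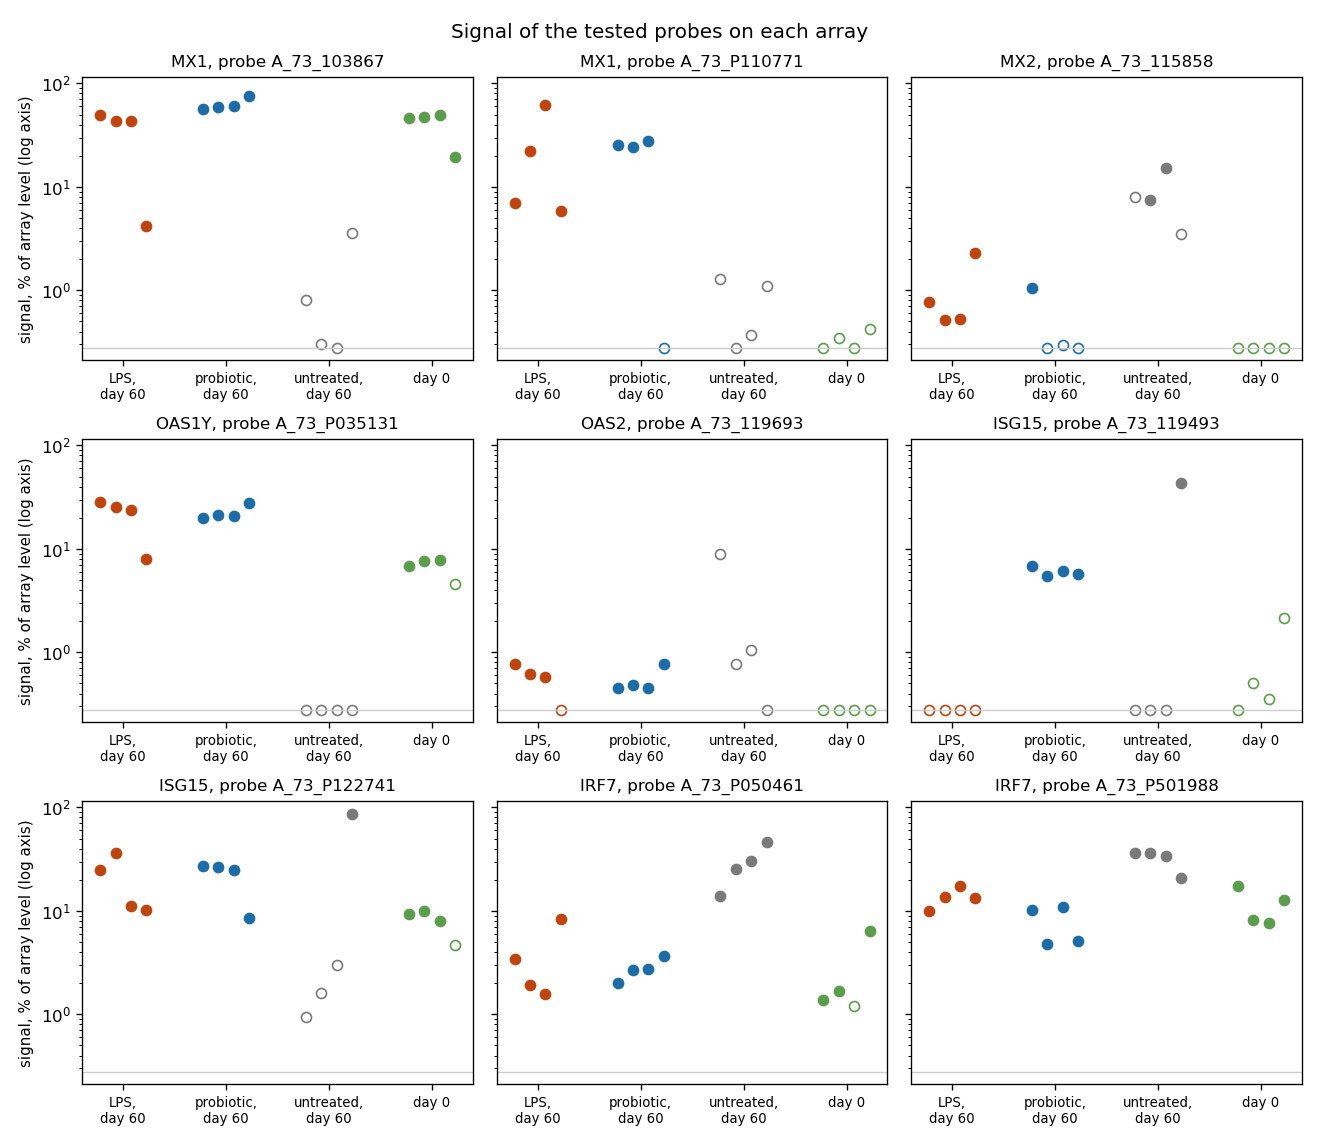
Signal of the 9 tested probes on each array, as percent of the array level on a log axis. Each point is 1 array, filled where the spot was well above background, and points at or below the floor of 0.28% are drawn on the grey line. The MX1 probe A_73_103867 and OAS1Y are filled in LPS, probiotic and most day 0 arrays and open on all untreated arrays, while both IRF7 probes are highest in untreated blood under this scaling, an order that scaling within row bands turned for A_73_P501988.

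Probiotic against untreated blood at day 60 asks how the members differed with the supplement. MX1 and OAS1Y rose, MX2 and IRF7 passed as lower after scaling, and ISG15 and OAS2 did not pass. Of the 6 tested members 4 were thus called. Over all 9426 genes tested, 65.6% were called in this comparison, 37.4% up and 28.2% down, and the members' share is close to that background. Their median log2 difference was 0.49, against 0.77 for all genes. MX1 (A_73_103867) was at least 9.32-fold higher in probiotic blood, with a fitted log2 difference of 6.48 ± 0.85 (limma adjusted p = 1.19e-05, n = 4 arrays per group). OAS1Y was at least 3.31-fold higher, with a fitted difference of 6.32 ± 0.41 (limma adjusted p = 9.81e-09). These fitted values hold the dark untreated spots near or at the floor, and the bounds do not. In both genes every probiotic array was above every untreated array, and both calls were made under each of the 21 alternatives that gave a test. The MX1 and OAS1Y differences stood above those of 95.3% and 94.7% of the probes around them, whose medians were 2.82 and 2.67.

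A second MX1 probe, A_73_P110771, was higher in probiotic blood on 3 of the 4 arrays. It read 3001, 2653, 3002 and -1.7 units in probiotic blood and -11.3 to 14.1 units in untreated blood. It was dark on all untreated arrays, with a fitted difference of 3.75 ± 1.24 (limma adjusted p = 0.0151) and neighbours at -1.93. No bound on its fold is given, since 1 probiotic spot was dark too. The dark spot was on probiotic replicate 4, where 10.4% of the spots around it were well above background, against 34.8 to 46.4% on the other probiotic arrays.

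ISG15 differed by 2.15 ± 1.05 (limma adjusted p = 0.0852), with neighbours at -0.41. The ISG15 difference was 3.58 without untreated replicate 4 (limma adjusted p = 0.000118). It also passed under the percentile of all probes (4.01, limma adjusted p = 0.00408), the median of all probes (3.74, 0.0310), quantiles (3.34, 0.0169), normexp (1.97, 0.0472), row bands (5.63, 0.000280) and without all replicate 4 arrays (3.98, 2.64e-05). ISG15 did not pass under the other 14 of the 21 alternatives, among them cyclic loess (0.60, limma adjusted p = 0.617). OAS2 was dark on all untreated arrays, whose limit lay above its probiotic level, so no fold and no direction can be given. Its fitted difference was -1.18 ± 0.76 (limma adjusted p = 0.184), with neighbours at 2.34. The OAS2 difference turned to 0.33 when each array was scaled to the 75th percentile of all its probes, and passed as lower under 4 alternatives, at -2.17 to -1.88. MX2 fell by 4.25 ± 0.59 on the log2 scale (limma adjusted p = 2.07e-05), and the probes around it had a median of -4.49. IRF7 fell by 2.11 ± 0.42 (limma adjusted p = 0.000477), with neighbours at -2.70, but the call was lost under the percentile of all probes (-0.26, limma adjusted p = 0.612) and the median of all probes (-0.53, 0.471), and the difference was 0.57 when signal was scaled within bands of 76 rows. The other IRF7 probe, A_73_P050461, differed by -3.30 and its neighbours by -3.55. For MX2 and IRF7 the members' differences were thus within 0.59 log2 units of the median of the spots printed near them.

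**Figure D3:**
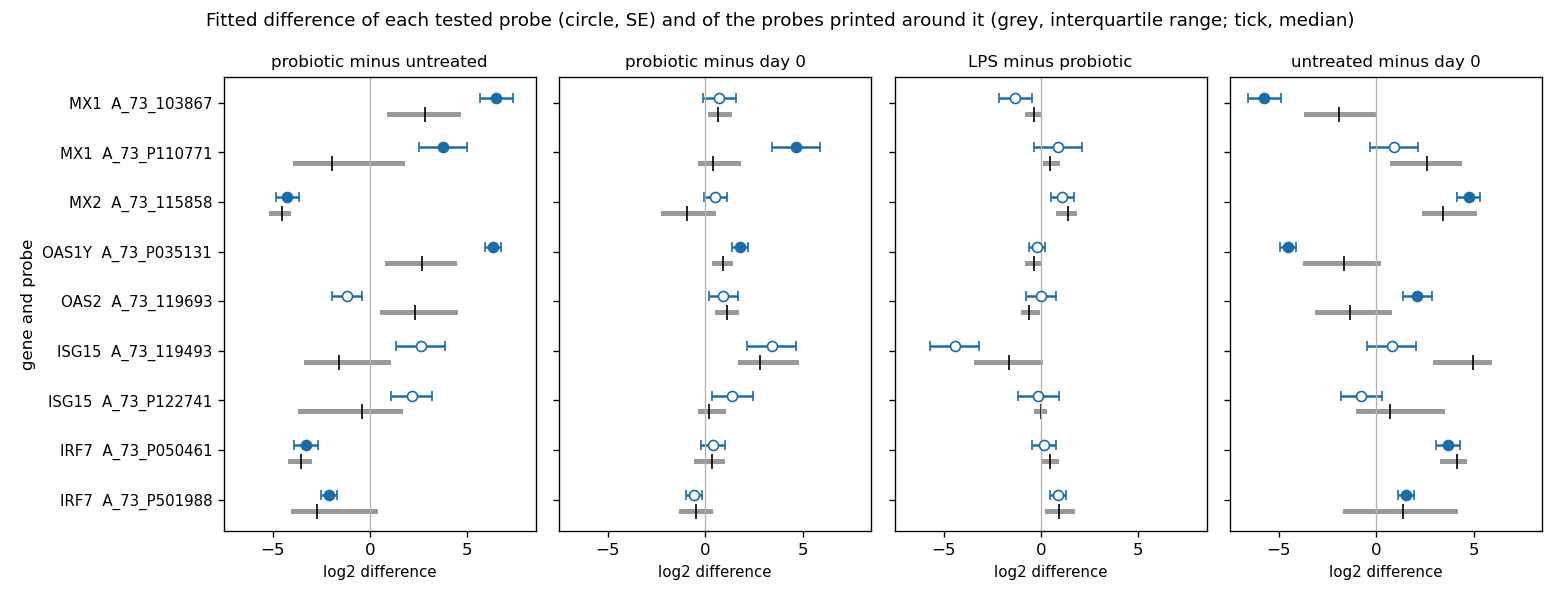
Fitted log2 difference of each tested probe in the 4 comparisons (circle with SE, filled where it passed), with the tested probes within 10 rows and columns below it (grey bar, interquartile range of their differences; tick, median). In probiotic minus untreated, MX1 (A_73_103867) and OAS1Y lie at 6.48 and 6.32 beyond neighbours at 2.82 and 2.67, while MX2 and IRF7 lie on their neighbours.

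The rest of the pathway split in the same comparison. Of 27 tested genes among other interferon-induced effectors, 14 rose, 4 fell and 9 did not pass, with a median difference of 2.80, against 37.4% of all genes up, 28.2% down and a median of 0.77. ISG20, an exonuclease, rose by 5.63 and was dark on all untreated arrays, which makes it at least 2.05-fold higher (limma adjusted p = 1.02e-08). IFITM2, a membrane protein that blocks virus entry, was well above background on all 8 arrays and rose by 5.28 ± 0.45 (limma adjusted p = 1.69e-07). PLSCR2, listed as PLSCR1 in the file, rose by 5.29 and was at least 1.98-fold higher. CXCL10, a chemokine that attracts T cells, fell by 4.94 ± 0.71 (limma adjusted p = 2.70e-05). Of 9 tested genes of the JAK, STAT and IRF group 3 rose and 3 fell. STAT2 rose by 4.87 and was at least 3.13-fold higher (limma adjusted p = 4.80e-07). Of 7 tested sensors of viral nucleic acid 3 rose and 2 fell. Of 2 tested ligand and receptor genes, the receptor chain IFNAR1 rose by 2.16 ± 0.46 (limma adjusted p = 0.000762), with no fold bound since the limit of the dark untreated arrays lay higher, and IFNAR2 differed by -0.78 ± 1.16. The 3 probes of IRF9 were well above background on at most 5 arrays each, so it was not tested. Differences of the spots around the pathway genes were not computed.

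Probiotic against day 0 blood sets the end of supplementation beside its start. OAS1Y rose, by 1.77 ± 0.41 on the log2 scale (limma adjusted p = 0.0189), and no other of the 6 tested members passed, against 8.17% of all 9426 genes (6.49% up and 1.68% down). The median difference was 0.82 for the members and 0.75 for all genes, and the probes around OAS1Y had a median of 0.90. OAS1Y did not pass when arrays were scaled to the percentile of all probes (limma adjusted p = 0.118), by quantiles (0.0579) or by cyclic loess (0.138), nor without probiotic replicate 2 or 3 (0.0549 and 0.0555).

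MX1 (A_73_103867) differed from day 0 by 0.72 ± 0.85 (limma adjusted p = 0.601). Its 4 probiotic arrays all lay above the day 0 arrays as a share of the array level, and its neighbours had a median of 0.67. The second MX1 probe A_73_P110771 was dark on all day 0 arrays, at 1.9 to 9.8 units, and on 1 probiotic array. It passed as higher in probiotic blood (fitted difference 4.67 ± 1.24, limma adjusted p = 0.0308). That probe did not stand for MX1 in the count, and the pair of MX1 probes thus gave unlike answers. ISG15 differed by 1.36 ± 1.05, OAS2 by 0.92 ± 0.76, MX2 by 0.50 ± 0.59 and IRF7 by -0.59 ± 0.42, with limma adjusted p from 0.398 to 0.602. Over the 4 pathway lists together the share of genes called up was close to the 6.49% of all genes. In the JAK, STAT and IRF group 0 of 9 tested genes passed, with 0 of 7 sensors and 0 of 2 ligand and receptor genes. Of 27 tested effectors 3 passed, all up. They were TRIM25, a ubiquitin ligase of the RIG-I pathway (fitted difference 5.14 ± 1.26, limma adjusted p = 0.0230), IFI35 (3.62 ± 0.93, 0.0289) and UBA7, the enzyme that activates ISG15 (2.71 ± 0.79, 0.0451). Each of these was dark on all day 0 arrays and well above background on only 3 of the 4 probiotic arrays, so no bound on the fold is given. STAT2 differed by 0.88 ± 0.46, IFNAR1 by 0.99 ± 0.46 and IFNAR2 by 1.35 ± 1.16, none past the test.

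LPS against probiotic blood, on the same scan day, asks how endotoxin added in vitro changed these genes. In the limma fit 0 of the 6 tested members passed, and 0 had an unadjusted p under 0.05, against 0.637% of all genes called (0.573% up and 0.0637% down). The members' median was -0.07 and that of all genes -0.14. MX1 (A_73_103867) differed by -1.32 ± 0.85, which rested on LPS replicate 4, since the difference was -0.46 without that array. Differences were -0.21 ± 0.41 for OAS1Y, -0.14 ± 1.05 for ISG15, 0.00 ± 0.76 for OAS2, 0.88 ± 0.42 for IRF7 and 1.08 ± 0.59 for MX2. The missed threshold does not show equal levels, given SE of up to 1.05. Of 45 tested genes in the 4 pathway lists, 0 passed in limma either.

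The ISG15 probes parted in LPS blood. Probe A_73_119493, whose sequence is given above, was dark on all 4 LPS arrays and bright on all 4 probiotic arrays. It was at least 13.1-fold lower in LPS blood (fitted difference -4.43 ± 1.26, limma adjusted p = 0.199). This probe was tested only because it was well above background on all 4 probiotic arrays, a choice that favours a lower LPS value. Probe A_73_P122741, which holds the same 28 bases, was well above background on all LPS arrays. The tested probes around A_73_119493 had a median of -1.62, and 14.1% of them fell further than it did. Around it 8.5 to 21.9% of spots were well above background on LPS arrays and 25.4 to 44.0% on probiotic arrays. The contrast is therefore not shown by the gene's other probe and did not pass the test.

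Untreated against day 0 blood compares the water arm at the end with the start. MX1 and OAS1Y fell, MX2, IRF7 and OAS2 passed as higher, and ISG15 did not pass, which is 5 of 6 members against 56.8% of all genes (30.3% up and 26.5% down). MX1 (A_73_103867) was at least 5.66-fold lower in untreated blood (fitted difference -5.76 ± 0.85, limma adjusted p = 3.47e-05), with neighbours at -1.93. The second MX1 probe, A_73_P110771, did not show this. It was dark in both groups and differed by 0.92 ± 1.24 (limma adjusted p = 0.550). OAS1Y differed by -4.55 ± 0.41 (limma adjusted p = 2.98e-07), with neighbours at -1.66. The untreated arrays' limit lay above its day 0 level, so no bound on the fold can be given, and the difference was 0.091 on the detrended signal. MX2, well above background on 2 of the 4 untreated arrays and dark at day 0, passed with a fitted difference of 4.75 ± 0.59 (limma adjusted p = 6.90e-06) and neighbours at 3.44. No bound on its fold is given, since the other untreated spots, at 85.6 and 44.3 units, would enter the mean without being well above background. IRF7 was higher by 1.52 ± 0.42 (limma adjusted p = 0.00627), with neighbours at 1.34, and its sign turned to -0.56 under the percentile of all probes and to -2.03 within row bands. OAS2 was not well above background in either group, and its difference of 2.10 ± 0.76 (limma adjusted p = 0.0283), with neighbours at -1.33, compares dim spots. That call was lost under 11 of 21 alternatives, with differences down to 0.08 (limma adjusted p = 0.938). ISG15 differed by -0.79 ± 1.05 (limma adjusted p = 0.549), and by -2.21 without untreated replicate 4 (limma adjusted p = 0.00499), with neighbours at 0.71. The other ISG15 probe, A_73_119493, differed by 0.78 ± 1.26 (limma adjusted p = 0.621) and its neighbours by 4.95.

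In the pathway lists for this comparison, 6 effectors were up and 10 down of 27, 3 up and 1 down of 9 in the JAK, STAT and IRF group, 2 up and 3 down of 7 sensors, and 1 down of 2 ligand and receptor genes, against 30.3% of all genes up and 26.5% down. IFITM2, measured on all 8 arrays, fell by 5.71 ± 0.45 (limma adjusted p = 7.86e-08). ISG20 was at least 1.23-fold and STAT2 at least 1.70-fold lower. TYK2, a kinase at the interferon receptor, rose by 6.18 ± 1.05 (limma adjusted p = 0.000135), and HERC5, which attaches ISG15 to proteins in human cells, was at least 10.1-fold higher (limma adjusted p = 0.000227). The ligand and receptor gene that passed was IFNAR1 (-1.17 ± 0.46, limma adjusted p = 0.0408), dark in both groups, and IFNAR2 differed by 2.14 ± 1.16, which did not pass. The comparisons with untreated blood share the untreated arrays and those with day 0 share the day 0 arrays, so their differences are not independent of one another.

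**Figure D4:**
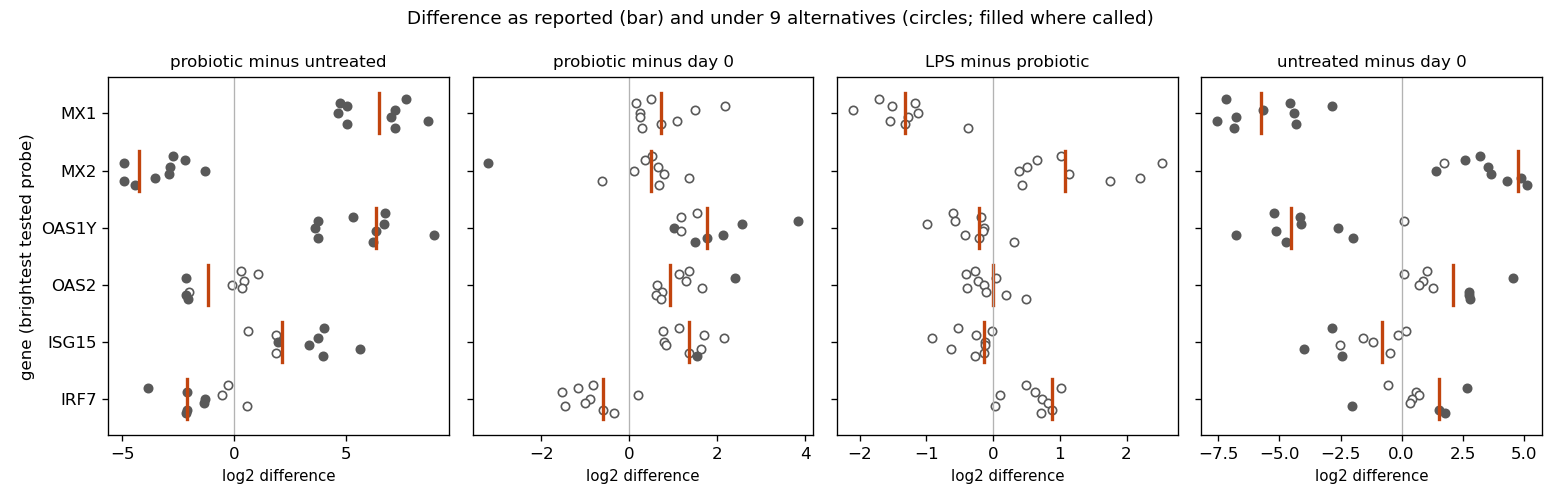
Log2 difference of each tested member (brightest tested probe) as reported (orange bar) and under 9 alternatives of signal, scaling or arrays (circles, filled where the call was made). In probiotic minus untreated, MX1 and OAS1Y stay filled and above 0 throughout, while IRF7 and OAS2 lie on both sides of 0. In LPS minus probiotic no circle is filled.

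Among themselves the members formed opposed profiles over the 16 arrays. MX1 and OAS1Y had a Pearson correlation of 0.91, whereas MX1 correlated with MX2 at -0.94 and with IRF7 at -0.84. These values describe 16 arrays of 4 pools that share scaling and brightness. MX1 and MX2, neighbours in the genome and both interferon-induced, thus had opposed profiles as scaled. MX2 was well above background on only 7 of the 16 arrays and its day 0 spots were at the floor, so its profile rests largely on spots that were not measured. Their probes also lay in parts of the slide whose other spots differed in opposite directions. By the same measure, the genes outside the set whose profile was most like the members' median, of 7341 compared, were PHTF1 (0.954), TSPAN3 (0.946) and EIF2AK2 (0.942). EIF2AK2 encodes the double-stranded RNA-activated kinase PKR.

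The authors' deposited table of 1 log2 value per probe and group ordered several members otherwise. In the authors' deposited table MX1 (A_73_103867) stood at -2.01 for LPS, 0.39 for probiotic, -0.40 for untreated and 1.29 for day 0. For OAS1Y the authors' deposited table gave -1.29, 0.17, 0.30 and -0.96 in the same order of groups. The centring of that table is not given in the sources used here. OAS1Y, dark on every untreated array and bright on every probiotic array in the scanner output, thus differed by -0.13 between probiotic and untreated in the authors' deposited table.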

How the data were processed

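The authors deposited 1 Agilent Feature Extraction 10.10.1.1 file per array, per the file headers and the submitters' processing notes, with spot intensity after background subtraction and no normalization between arrays; on 4 arrays (day 0 replicates 2 to 4 and LPS replicate 4) the deposited processed signal was also detrended, so the undetrended intensity was used. A deposited table gives the authors' log2 averages per group. The array level is the 75th percentile of 672 probes. Spots marked as outliers were left out, and no spot was saturated. Values were tested with lmFit and eBayes of limma 3.58.1 (R 4.3.3), two-sided, over 12214 probes, and the brightest tested probe stood for a gene. The number of arrays limits the precision. The limma fit was tested on simulated data, in which 200 of 12214 probes were changed. It recovered 29 of the 200 at a log2 change of 2 and 139 of the 200 at a change of 4, all with the right sign. There were 4 and 11 false calls. A difference that did not pass therefore does not show equal levels.

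The members and gene lists were chosen with earlier results of these data known. All members were named, along with the 4 largest called pathway genes per comparison, STAT2, IRF9, IFNAR1 and IFNAR2 where measured, and the 3 genes most like the members. Gene names came from accessions matched to RefSeq (ARS-UCD2.0) or from the files. Neighbouring spots, row bands and leaving out the replicate 4 arrays were chosen after seeing the data. One further gene is not reported here. Other alternatives covered signal, scaling, background, filter, floor, samples and replicate block. Figures were drawn with matplotlib 3.10.9.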

Additional observations from a re-analysis of the deposited data

Results flagged for a closer look

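In a group of 4 arrays, 1 array was marked where its gap to the nearest other as a share of the group's range exceeded Dixon's critical value, on the scaled log2 scale. Of the 36 groups examined 10 were marked, 9 of them through a replicate 4 array. Chance marks about 1 in 20 groups of independent, normally distributed values. That rate cannot be set beside this count, since many values lay at the floor and the groups share arrays. For MX1 (A_73_103867), LPS replicate 4 stood at -4.57 with the others from -1.2 to -1.0, and day 0 replicate 4 at -2.38 with the others from -1.11 to -1.01. For OAS1Y, LPS replicate 4 stood at -3.64 with the others from -2.06 to -1.83, and probiotic replicate 4 at -1.85, above the others at -2.32 to -2.25. Probiotic replicate 4 was also apart for OAS2 at -7.01 (others -7.78 to -7.70), for the second MX1 probe A_73_P110771 at the floor of -8.48 (others -2.04 to -1.84) and for the ISG15 probe A_73_P122741 at -3.56 (others -2.01 to -1.88). Untreated replicate 4 was apart for the ISG15 probe A_73_119493 at -1.22, with the others at the floor of -8.48, and for IRF7 (A_73_P501988) at -2.26 (others -1.55 to -1.45). For MX2, probiotic replicate 1 stood at -6.58 and the others from -8.48 to -8.39.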

How the results depend on the processing

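MX1, OAS1Y and MX2 kept their calls in probiotic minus untreated under all 21 tested alternatives, and MX1 its call in untreated minus day 0. For MX2 that call compares spots most of which were not well above background. Where a value below turned sign or a count moved, the cause was not tested, except that fewer or more probes entered under another filter. With no filter, and with 1 array above background sufficing, the probes called numbered 15150 and 13473 against 7869 in probiotic minus untreated, 660 and 573 against 1102 in probiotic minus day 0, and 12606 and 11173 against 6794 in untreated minus day 0. In probiotic minus day 0 the detrended signal gave 6580 probes and 3 members, the median of all probes 2130 probes, cyclic loess 592 probes and 0 members, normexp 328 probes, the fit of 2 groups only 3085 probes, and leaving out all replicate 4 arrays 2381 probes and 2 members. The percentile of all probes and quantiles gave 0 members there, and leaving out each array in turn gave 384 to 865 probes and 0 to 1 members. In LPS minus probiotic, 93 probes were called, against 151 on the detrended signal, 36 under the median of all probes, 38 with normexp, 227 with the software's replacement for dim spots, 188 without replicate 4 arrays and 55 to 101 leaving out each array. In untreated minus day 0, 5 members were called, against 2 on the detrended signal and 3 under the median, quantile and normexp settings. For OAS2 in probiotic minus untreated the sign turned under the percentile of all probes (0.33), the median (0.42), quantiles (0.35) and cyclic loess (1.05). Scaling within row bands turned IRF7 to 0.57 in probiotic minus untreated and -2.03 in untreated minus day 0, where the percentile gave -0.56. In probiotic minus day 0, MX2 was -3.20 on the detrended signal and -0.61 with the software's replacement, and IRF7 0.20 under the median. OAS1Y in untreated minus day 0 was 0.091 on the detrended signal, and ISG15 0.17 under cyclic loess. In LPS minus probiotic, OAS2 was 0.041 on the detrended signal, 0.19 with the replacement and 0.49 without replicate 4 arrays, and OAS1Y 0.32 without them. Leaving out each array there gave ranges of -0.54 to 0.14 for ISG15, -0.39 to 0.21 for OAS1Y and -0.19 to 0.31 for OAS2. The authors' deposited averages gave the opposite sign for ISG15 (-1.64) and OAS1Y (-0.13) in probiotic minus untreated, for MX1 (-0.90), ISG15 (-0.62) and IRF7 (1.1) in probiotic minus day 0, for IRF7 (-0.27) in LPS minus probiotic, and for ISG15 (1.02) and OAS1Y (1.26) in untreated minus day 0.

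The median difference of all genes moved from 0.77 to 2.10 under the percentile of all probes and to -0.29 on the detrended signal in probiotic minus untreated. The replicate block gave 8021, 919, 91 and 7027 probes in the 4 comparisons and the same member counts of 4, 1, 0 and 5. Same-numbered arrays correlated in their deviations from -0.23 to 0.61 (median 0.01, 24 pairs), so the numbers do not pair the arrays. Slide as a block was not run because each slide holds 1 group.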
